A study of Homo sapiens with 6 samples.

Results

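The transcripts described here encode the core of the NF-κB system: the 5 subunits NFKB1, NFKB2, REL, RELA and RELB, the inhibitors NFKBIA and NFKBIE, the feedback inhibitor A20 (TNFAIP3) with its binding partner TNIP1, and the adhesion molecule ICAM1. They were chosen by gene name, as every probe set that the array's annotation assigns to 1 of these 10 symbols alone. This gave 22 probe sets of 54613 and 10 genes of 19775. All 10 genes were represented, by 1 to 5 probe sets each, and no filter on low values was applied to them.

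In resting cells NF-κB dimers are held in the cytoplasm by IκB proteins, such as those encoded by NFKBIA and NFKBIE. Signals from cytokine and Toll-like receptors activate the IκB kinase, IκB is degraded and the dimers enter the nucleus. There they switch on genes that include NFKBIA and TNFAIP3, whose products turn the pathway off again, and ICAM1, which binds integrins of leukocytes. In breast cancer cells the pathway is known for driving the output of cytokines and for survival signalling.

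Gene expression was measured on Affymetrix HG-U133 Plus arrays in SUM149, a human cell line derived from inflammatory breast cancer. The siTIG1 group (3 arrays) came from cells transfected, with oligofectamine, with an ON-TARGET Plus SMART pool of siRNAs directed at TIG1, and the siControl group (3 arrays) from cells given a siGENOME non-targeting pool in the same way. TIG1 is a retinoid-induced gene whose current symbol is RARRES1. Both pools were used at 200 nmol/L, and both groups grew with 5% serum, hydrocortisone (a glucocorticoid) at 1 µg/ml and insulin at 5 µg/ml. The pools thus differed in target and in product line, all data come from 1 cell line, and the time between transfection and harvest does not appear in the labels used here. No label says that replicates came from different cultures. The p-values therefore cover the spread among these 6 arrays alone, which may be technical. In bulk RNA, fewer cells that make a transcript and less transcript per cell cannot be told apart.

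The deposited values are on a log2 scale, and all levels and differences below are in these units, with differences as siTIG1 minus siControl. Differences were tested with limma over all 54613 probe sets, and adjusted p means the Benjamini-Hochberg value over that whole table, with 0.05 as the threshold. The array of siControl replicate 3 stood apart: across probe sets it correlated with both other controls at 0.985, whereas the siTIG1 arrays correlated with those controls at 0.992 to 0.993. Each result is therefore given with all 6 arrays and without that array. RARRES1 differed on its 3 probe sets by -1.28, -1.24 and -0.83 (limma adjusted p of 0.197, 0.227 and 0.273; exact permutation p, 2-sided, of 0.1, 0.1 and 0.3, 0.1 being the lowest possible p with 3 arrays a group). Without siControl replicate 3 it differed by -0.75, -0.68 and -0.46 (limma adjusted p of 0.0244, 0.0428 and 0.16). On the array labelled siTIG1 replicate 1, RARRES1 was only -0.27, -0.17 and 0.057 from the mean of siControl replicates 1 and 2. In this gene the array thus goes partly against its label. Across all probe sets, however, the siTIG1 arrays correlated with each other at 0.9980 to 0.9986, higher than with those controls. Of 8 measured breast epithelial markers, 7 lay above the median gene level of 8.69, among them EPCAM, CDH1, KRT8, KRT18 and KRT5. Leukocyte markers (6 measured) and endothelial markers (5 measured), which matter because leukocytes and endothelium also make ICAM1, had mean levels per array of 7.30 to 7.33 and 7.86 to 7.90 on the siTIG1 arrays and of 7.17 to 7.48 and 7.79 to 7.86 on the siControl arrays. Of these, 1 leukocyte marker, CD3E, and 2 endothelial markers, PECAM1 and TEK, lay above the median gene level. They averaged 8.89, 9.35 and 9.30 in siTIG1 and 8.84, 9.28 and 9.29 in siControl cells. Fibroblast markers (5 measured) averaged 8.17 to 8.24 on the siTIG1 arrays and 7.94 to 8.11 on the siControl arrays. The fibroblast markers ranged widely, from LUM at 5.007 in siTIG1 and 5.015 in siControl cells to FAP at 11.73 and 10.81. FAP was the 1 of them above the median gene level. No marker gene of these 4 lists passed with all arrays. When siControl replicate 3 was left out, the leukocyte marker CD14 (0.80), the fibroblast marker FAP (0.60) and the epithelial markers CDH1 (0.35), KRT5 (0.29) and KRT8 (0.22) passed as higher, and EGFR (-0.86) and KRT14 (-0.32) as lower. Their part in the differences of the members was not tested.

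TNFAIP3 and ICAM1 were higher in siTIG1 cells, by about 2-fold and 1.4-fold, whereas no probe set of a subunit or of an IκB inhibitor passed the test with all arrays. Of the 22 probe sets, 4 rose and 0 fell by limma, and the other 18 did not pass. All 4 belonged to TNFAIP3 and ICAM1. Over all probe sets 5.01% passed, 2.14% as higher and 2.87% as lower. At an unadjusted limma p under 0.05 there were 9 of the 22, against 19.1% of all probe sets. Without siControl replicate 3 the count was 7 higher and 0 lower, against 18.9% of all probe sets (7.87% higher, 11.0% lower), with REL on 2 probe sets and TNIP1 on 1 joining TNFAIP3 and ICAM1. With the array labelled siTIG1 replicate 1 left out too, it was 8 higher and 0 lower, against 18.3% (7.90% higher, 10.4% lower). With each gene represented by its probe set of highest mean and p adjusted over all 19775 genes, limma called 2 of the 10 genes with all arrays, TNFAIP3 and ICAM1, against 7.29% of all genes. Leaving out siControl replicate 3, it called 4, NFKBIE and TNIP1 besides these, against 27.1% of all genes, and all were higher. The median difference of the 22 probe sets was 0.11 with all arrays and 0.16 without siControl replicate 3 alone, beside 0.015 and 0.018 over all probe sets. On 8 probe sets every siTIG1 array lay above every siControl array, and on 1, that of NFKB1, every siTIG1 array lay below. Over all probe sets 14.8% were separated upwards and 13.0% downwards. Setting siControl replicate 3 aside gave 11 members above and 1 below, against 25.5% and 21.6% of all probe sets.

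**Figure D1:**
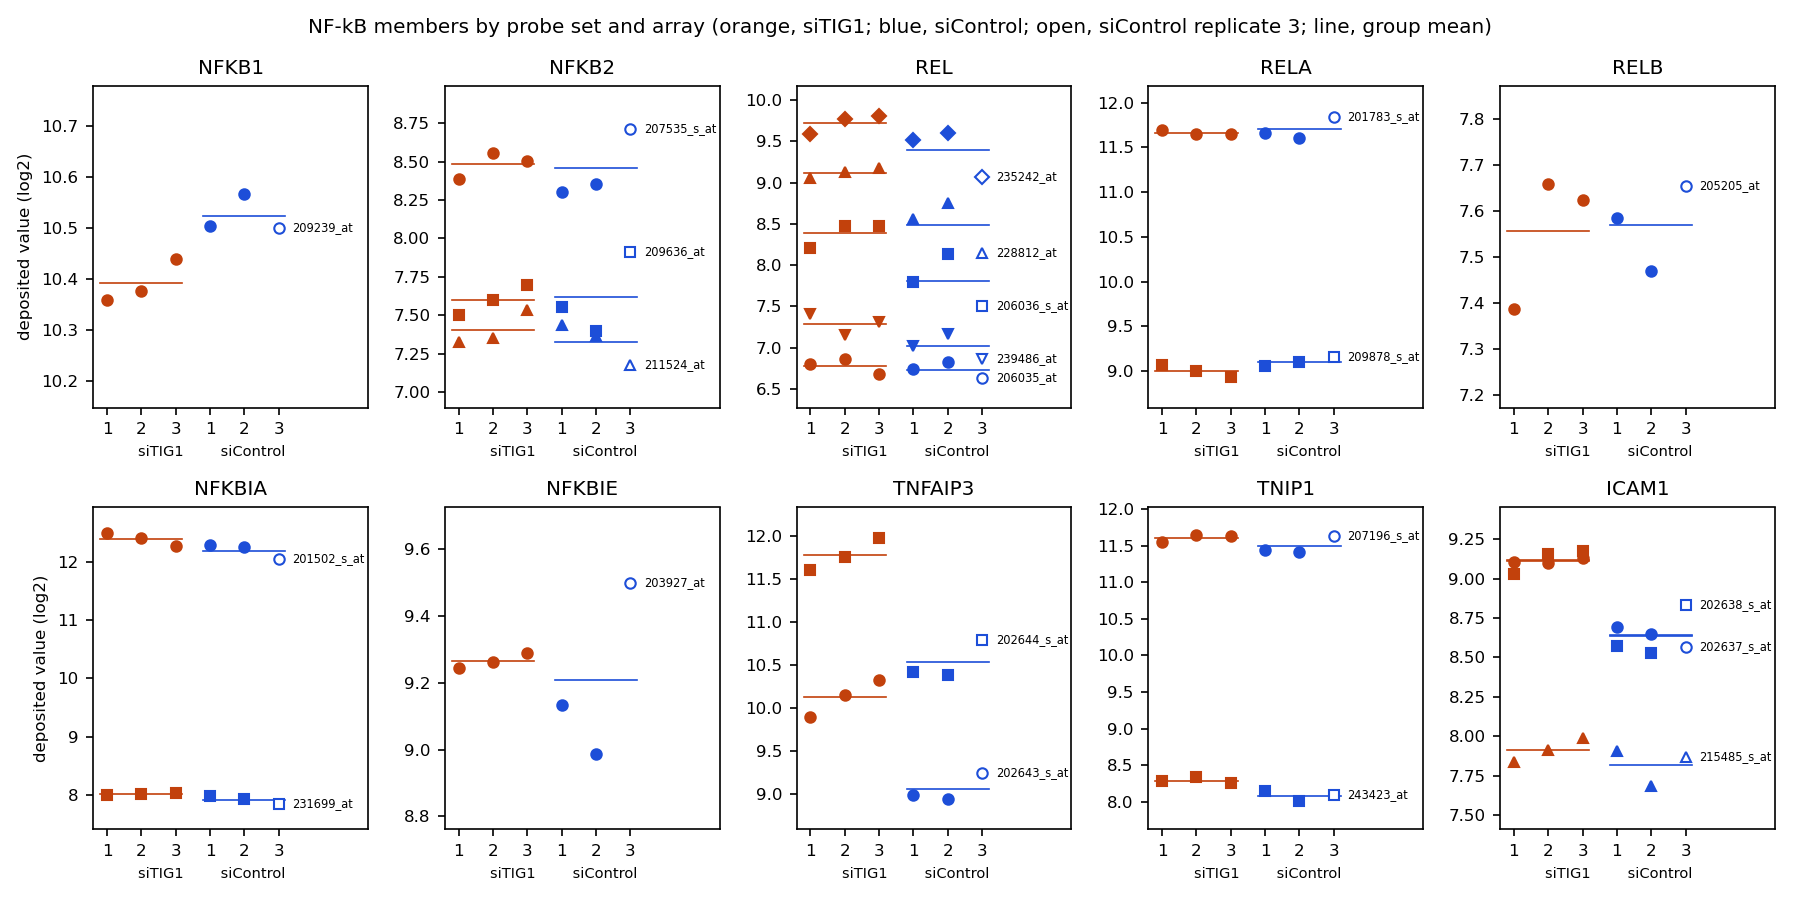
Deposited log2 value (vertical axis) of each of the 22 probe sets on each array (horizontal axis: siTIG1 and siControl replicates 1 to 3), 1 panel per gene, with a marker shape per probe set and a line at each group mean. TNFAIP3 and 2 of 3 ICAM1 probe sets have all siTIG1 arrays above all siControl arrays, and the open marker of siControl replicate 3 lies lowest of the controls on every REL probe set.

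A measure of RNA quality moved with these differences. For ACTB, the value of the 3′ end minus that of the 5′ end, a gap that widens in degraded RNA, was 2.14, 2.28 and 2.34 on the siTIG1 arrays, against 2.73, 2.62 and 3.21 on the siControl arrays (exact permutation p of 0.1, 2-sided). That of GAPDH was 0.471, 0.460 and 0.459 on the siTIG1 arrays and 0.476, 0.462 and 0.573 on the siControl arrays. The means were 0.46 ± 0.0065 and 0.50 ± 0.06 (SD, n = 3 each; exact permutation p of 0.2, 2-sided). For both genes siControl replicate 3 had the widest gap, and for GAPDH the other controls were close to the siTIG1 arrays. The part of RNA quality in the differences of the members was not tested.

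Among the subunits, REL, which encodes c-Rel, a subunit best known from lymphocytes, had the largest differences. On probe set 228812_at REL read 9.06, 9.13 and 9.17 on the siTIG1 arrays, against 8.56, 8.75 and 8.15 on the siControl arrays. The groups did not overlap, and siControl replicate 3 was the lowest of all. The difference was 0.63 ± 0.15 (SE; 95% interval 0.28 to 0.99), with a limma adjusted p of 0.0679, and 0.47 ± 0.072 (SE) without siControl replicate 3, with an adjusted p of 0.00205. On probe set 206036_s_at REL read 8.21, 8.48 and 8.47 on the siTIG1 arrays, against 7.79, 8.13 and 7.51 on the siControl arrays, again without overlap. Its difference was 0.58 ± 0.16 (SE, limma adjusted p of 0.115) with all arrays and 0.43 ± 0.11 (SE, limma adjusted p of 0.029) without siControl replicate 3.

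The other REL probe sets gave smaller differences. Probe set 235242_at read 9.58, 9.77 and 9.81 on the siTIG1 arrays, against 9.51, 9.60 and 9.06 on the siControl arrays, so that siControl replicate 2 lay above the lowest siTIG1 array, with a difference of 0.33 (limma adjusted p of 0.289). Probe set 239486_at differed by 0.28 (limma adjusted p of 0.203) and probe set 206035_at by 0.050 (limma adjusted p of 0.779). These 3 differed by 0.17, 0.20 and 0.0010 when siControl replicate 3 was left out, and none passed. Thus 2 of 5 REL probe sets passed without that control array and 0 with all arrays, and 235242_at joined them (0.24, limma adjusted p of 0.0341) when the array labelled siTIG1 replicate 1 was left out too. On all 5, siControl replicate 3 was the lowest control, at -0.51 to -0.15 from the mean of the others. Probe sets 239486_at and 206035_at were dim, averaging 7.29 and 6.78 in siTIG1 cells, below the median of 7.88 over all probe sets.

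RELA, which encodes p65, the main transactivating subunit of the canonical pathway, did not pass on either probe set. On probe set 201783_s_at it read 11.69, 11.65 and 11.64 on the siTIG1 arrays, against 11.66, 11.60 and 11.84 on the siControl arrays, a difference of -0.037 (95% interval -0.21 to 0.14). The sign of this small difference turned to 0.033 without siControl replicate 3 and to 0.0058 under quantile normalization. On probe set 209878_s_at RELA differed by -0.10 (95% interval -0.24 to 0.037, limma adjusted p of 0.409).

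NFKB1, which encodes p105 and its processed form p50, was the one member with all siTIG1 arrays below all siControl arrays. Its probe set 209239_at read 10.36, 10.38 and 10.44 on the siTIG1 arrays, against 10.50, 10.57 and 10.50 on the siControl arrays. The difference was -0.13 ± 0.052 (SE) and did not pass (limma adjusted p of 0.236, and of 0.12 without siControl replicate 3). NFKB2, which encodes p100 and its processed form p52 of the non-canonical pathway, had differences of 0.025, -0.020 and 0.077 on its 3 probe sets. On 207535_s_at the siTIG1 arrays read 8.38, 8.56 and 8.51, against 8.30, 8.35 and 8.72 on the siControl arrays, where siControl replicate 3 lay above all siTIG1 arrays. Setting siControl replicate 3 aside, the 3 differences were 0.15, 0.12 and 0.0026, with a lowest adjusted p of 0.148. RELB, the partner of p52, read 7.39, 7.66 and 7.62 on the siTIG1 arrays, against 7.58, 7.47 and 7.65 on the siControl arrays, with overlapping groups and a difference of -0.013 (95% interval -0.23 to 0.21). Over the 7 probe sets of NFKB1, NFKB2, RELA and RELB, the 95% intervals with all arrays ran from -0.34 to 0.31.

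NFKBIA, which encodes IκBα, the inhibitor that NF-κB itself induces, had the positive sign on both probe sets. On 201502_s_at it read 12.50, 12.41 and 12.28 on the siTIG1 arrays, against 12.29, 12.25 and 12.05 on the siControl arrays, so that the lowest siTIG1 array lay just under the highest control. The difference was 0.20 ± 0.089 (SE; 95% interval -0.013 to 0.41) with all arrays and 0.13 ± 0.072 (SE) without siControl replicate 3, with limma adjusted p of 0.289 and 0.272. On 231699_at the siTIG1 arrays read 8.004, 8.02 and 8.02, all above the siControl arrays at 7.98, 7.93 and 7.84, and the difference of 0.098 did not pass (limma adjusted p of 0.405). The upper ends of both intervals, 0.41 and 0.23, lay below the lower ends of those of TNFAIP3, 0.75 and 0.91, although the same pathway is known to induce both genes. The difference between probe sets was not tested. NFKBIE, which encodes IκBε, read 9.24, 9.26 and 9.29 on the siTIG1 arrays, against 9.13, 8.99 and 9.50 on the siControl arrays. Its difference was 0.058 with all arrays (limma adjusted p of 0.856) and 0.20 ± 0.062 (SE) without siControl replicate 3, where it was not called over all probe sets (limma adjusted p of 0.0505) but was called over all genes (limma adjusted p of 0.0296).

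**Figure D2:**
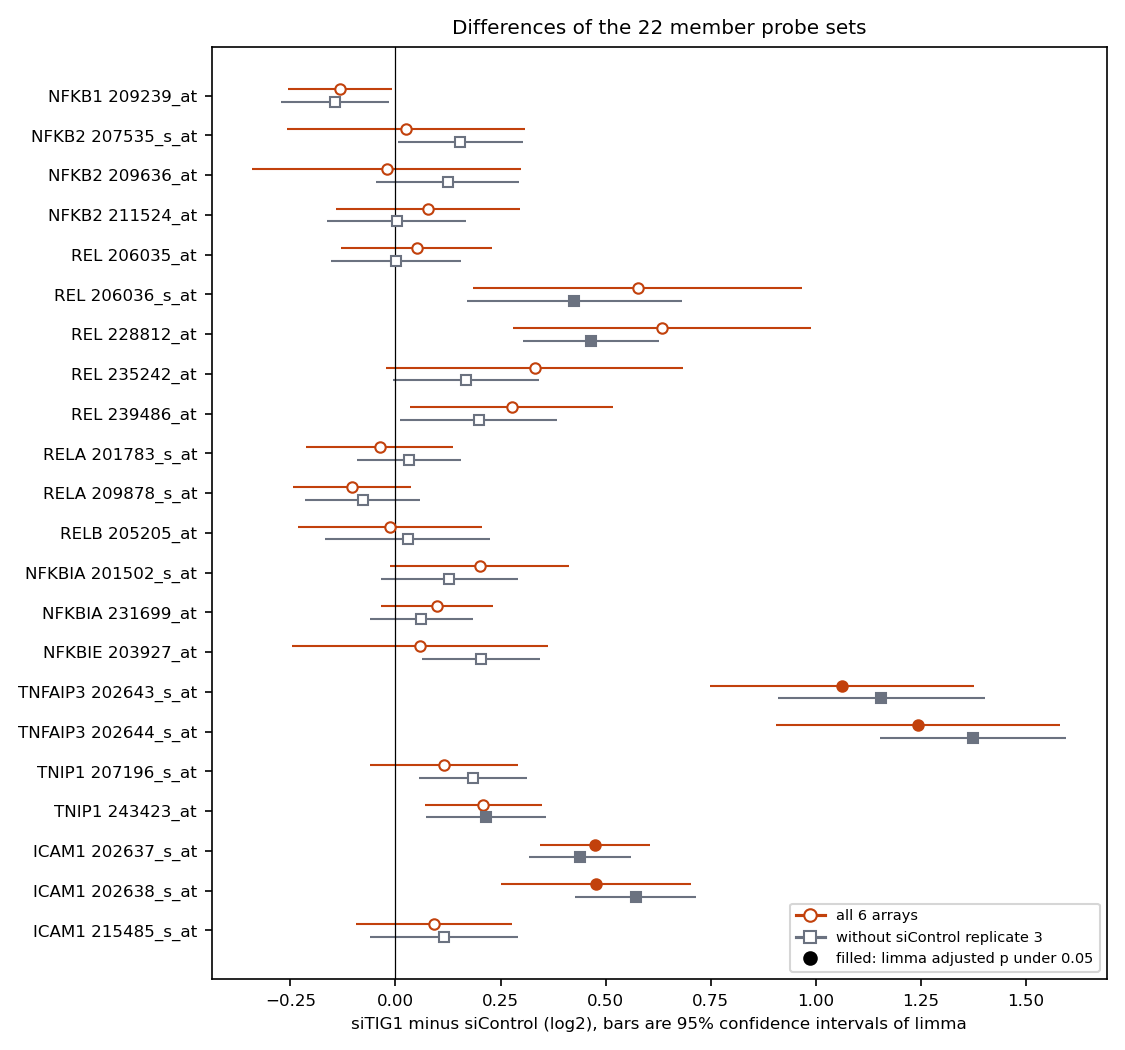
Difference siTIG1 minus siControl on the log2 scale (horizontal axis) for each of the 22 probe sets (rows), with all 6 arrays (circles) and without siControl replicate 3 (squares). Bars are limma's 95% confidence intervals and filled markers passed an adjusted p of 0.05. Both TNFAIP3 probe sets lie above 1 in both fits, and the intervals of NFKB2, RELA and RELB lie around 0 with all arrays.

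TNFAIP3 encodes A20, a ubiquitin-editing enzyme that ends NF-κB signalling from TNF and Toll-like receptors, and it had the largest differences of the 22. On probe set 202644_s_at it read 11.60, 11.75 and 11.98 on the siTIG1 arrays, against 10.42, 10.38 and 10.80 on the siControl arrays. The groups were well apart, with the array labelled siTIG1 replicate 1 lowest in its group and siControl replicate 3 highest in its own. The mean was 11.78 ± 0.19 in siTIG1 cells and 10.53 ± 0.23 in siControl cells (SD, n = 3 each), a 2.37-fold difference of 1.24 ± 0.14 (SE; 95% interval 0.91 to 1.58; limma adjusted p of 0.0086). The second probe set, 202643_s_at, read 9.89, 10.16 and 10.33 on the siTIG1 arrays, against 8.99, 8.95 and 9.25 on the siControl arrays. The groups again did not overlap, with a 2.09-fold difference of 1.06 ± 0.13 (SE, limma adjusted p of 0.0108).

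The TNFAIP3 differences without siControl replicate 3 were 1.37 ± 0.098 (SE) and 1.16 ± 0.11 (SE), with limma adjusted p of 4.24e-05 and 0.00016. The array labelled siTIG1 replicate 1 had the lowest TNFAIP3 of its group on both probe sets. At 11.60 and 9.89 it still lay above every siControl array, although RARRES1 on it was close to the controls. A relation between RARRES1 and TNFAIP3 across arrays was not tested. With that array left out as well the differences were 1.46 and 1.27. Leaving out siTIG1 replicate 2 or 3 ended both calls, with adjusted p of 0.0634 and 0.0537 on 202644_s_at and of 0.0755 and 0.059 on 202643_s_at, while the differences stayed between 0.96 and 1.25 in those fits. Leaving out either other control kept them, at adjusted p of 0.04 to 0.0485.

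TNIP1 encodes ABIN1, a ubiquitin-binding protein that works with A20, and its differences were small. On probe set 243423_at it read 8.28, 8.34 and 8.25 on the siTIG1 arrays, against 8.14, 8.01 and 8.09 on the siControl arrays, without overlap. The difference was 0.21 ± 0.058 (SE), with a limma adjusted p of 0.111 with all arrays and of 0.0427 without siControl replicate 3. On 207196_s_at the siTIG1 arrays read 11.55, 11.64 and 11.63, and the siControl arrays 11.44, 11.41 and 11.63. The difference there was 0.12 with all arrays and 0.18 without siControl replicate 3 (limma adjusted p of 0.468 and 0.0537 over all probe sets, and of 0.436 and 0.0307 over all genes).

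ICAM1 encodes the intercellular adhesion molecule CD54, a cell surface ligand for the leukocyte integrin LFA-1. On probe set 202637_s_at it read 9.11, 9.10 and 9.13 on the siTIG1 arrays, against 8.69, 8.65 and 8.56 on the siControl arrays. The siTIG1 arrays were close together, and the groups did not overlap. The mean was 9.11 ± 0.015 in siTIG1 cells and 8.64 ± 0.066 in siControl cells (SD, n = 3 each), a 1.39-fold difference of 0.48 ± 0.055 (SE; 95% interval 0.34 to 0.61; limma adjusted p of 0.00883). Without siControl replicate 3 it was 0.44 ± 0.054 (SE, limma adjusted p of 0.0006).

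On the second ICAM1 probe set, 202638_s_at, the siTIG1 arrays read 9.03, 9.15 and 9.18, against 8.57, 8.53 and 8.83 on the siControl arrays. Here siControl replicate 3 was the highest control, whereas it was the lowest on 202637_s_at. The difference was 0.48 ± 0.095 (SE) with all arrays (limma adjusted p of 0.0422) and 0.57 ± 0.064 (SE) without siControl replicate 3 (limma adjusted p of 0.000376). The third probe set, 215485_s_at, read 7.84, 7.91 and 7.99 on the siTIG1 arrays, against 7.90, 7.69 and 7.87 on the siControl arrays. Its groups overlapped, and its difference of 0.091 did not pass in either fit (limma adjusted p of 0.597 and 0.361). Leaving out siTIG1 replicate 2 or 3 ended the call of 202637_s_at (adjusted p of 0.0641 and 0.0659), and that of 202638_s_at was kept only without siControl replicate 3 and lost in each of the other 5 such fits (adjusted p of 0.106 to 0.184).

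**Figure D3:**
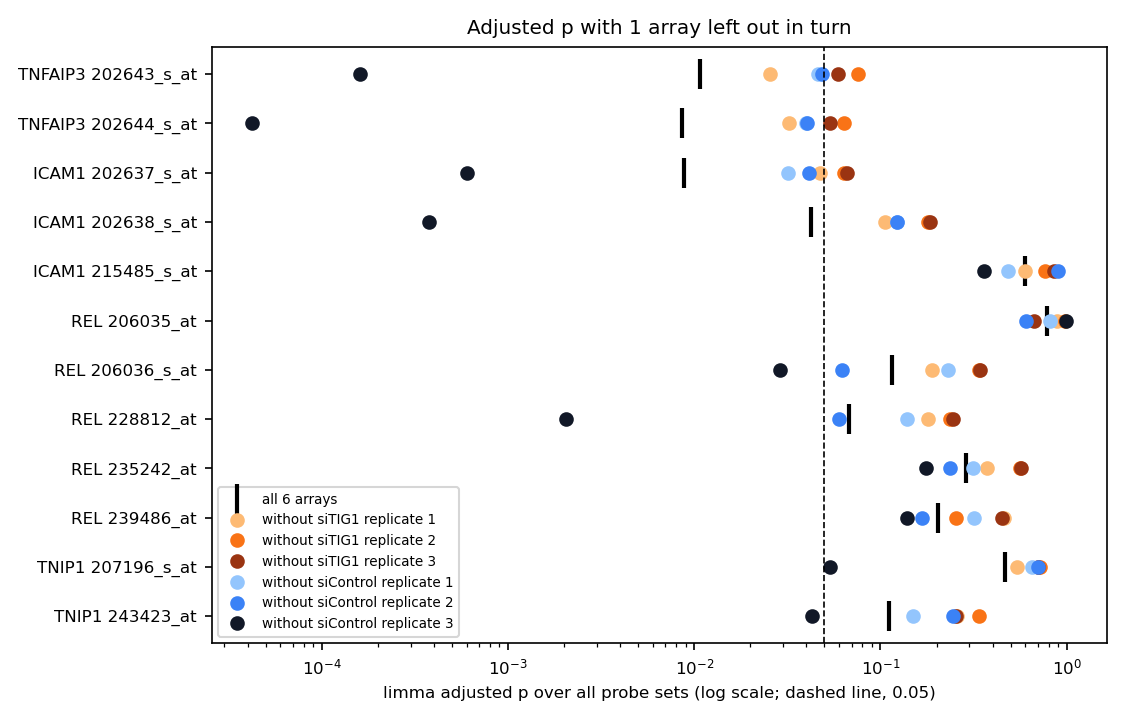
Limma adjusted p over all probe sets (horizontal axis, log scale) of the 12 probe sets of TNFAIP3, ICAM1, REL and TNIP1 (rows), with all 6 arrays (bar) and with each array left out in turn (points). The point without siControl replicate 3 is the lowest of each row except REL 206035_at, and those without siTIG1 replicate 2 or 3 lie right of the dashed line at 0.05 on every probe set.

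The promoters of the members are shown because the genes that moved and those that did not are both known NF-κB targets. RefSeq (build GRCh38.p14) gave 13 windows of 250 bases before to 50 after a start for 8 of the 10 genes, with none for RELB and NFKBIE. Each window was searched on both strands for the κB consensus, taken as 3 G, a purine, any 2 bases, 2 pyrimidines and 2 C, and for the shorter GGAAATTCC. The second was chosen after the ICAM1 window had been read, and it can overlap the first. The sequences of TNFAIP3 (chr6:137867009-137867308, plus strand), ICAM1 (chr19:10270870-10271169, plus strand), REL (chr2:60881324-60881623, plus strand) and NFKBIA (chr14:35404700-35404999, minus strand) are printed 5′ to 3′ along the gene, with matches to either motif in capitals.
TNFAIP3: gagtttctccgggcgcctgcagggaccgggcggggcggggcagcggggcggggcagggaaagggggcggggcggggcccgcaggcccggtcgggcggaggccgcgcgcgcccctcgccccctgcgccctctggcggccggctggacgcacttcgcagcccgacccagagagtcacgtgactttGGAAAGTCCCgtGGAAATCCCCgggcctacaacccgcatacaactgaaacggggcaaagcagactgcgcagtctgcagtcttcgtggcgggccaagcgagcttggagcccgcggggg
ICAM1: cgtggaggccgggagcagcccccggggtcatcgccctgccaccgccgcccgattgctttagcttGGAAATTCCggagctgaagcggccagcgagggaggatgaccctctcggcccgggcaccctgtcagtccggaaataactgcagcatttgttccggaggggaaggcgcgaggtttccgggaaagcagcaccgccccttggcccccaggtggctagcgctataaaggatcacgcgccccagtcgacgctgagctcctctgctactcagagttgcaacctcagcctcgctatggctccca
REL: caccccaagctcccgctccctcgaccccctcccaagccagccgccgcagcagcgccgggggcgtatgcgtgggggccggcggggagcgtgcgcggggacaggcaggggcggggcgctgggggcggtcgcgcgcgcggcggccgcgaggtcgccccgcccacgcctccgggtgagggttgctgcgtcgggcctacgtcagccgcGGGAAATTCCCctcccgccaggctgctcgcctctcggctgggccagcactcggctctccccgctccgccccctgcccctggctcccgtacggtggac
NFKBIA: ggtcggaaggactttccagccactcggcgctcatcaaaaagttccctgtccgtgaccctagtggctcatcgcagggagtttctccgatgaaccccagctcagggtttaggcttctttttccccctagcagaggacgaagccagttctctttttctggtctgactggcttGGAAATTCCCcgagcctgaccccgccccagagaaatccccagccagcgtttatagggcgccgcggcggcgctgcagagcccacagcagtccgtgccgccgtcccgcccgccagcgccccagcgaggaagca

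TNFAIP3 held 2 separate matches to the κB consensus, GGGACTTTCC and GGGGATTTCC on the opposite strand, whose first bases lie at -67 and -55 from the start. REL held overlapping matches on both strands from -47, and NFKBIA a match on the opposite strand from -81. The ICAM1 window held no match to the consensus, but GGAAATTCC from -186. A window of NFKB1, of TNIP1 and 2 windows of NFKB2 also held the consensus, and the RELA windows held none. In all, 7 of the 13 windows and 6 of the 8 genes held the consensus, against 11.3% of 35116 windows and 13.3% of 27305 genes with a window. The shorter motif stood in the windows of ICAM1, REL, NFKBIA and NFKB1, and in 0.461% of all windows. Genes with a match were thus found both among members that rose with all arrays (TNFAIP3) and among members that did not pass (NFKBIA, NFKB1 and NFKB2). A match describes these letters and not a bound site.

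Other genes of the pathway were read from lists of textbook roles, with 1 probe set per gene and limma's adjusted p over all 19775 genes. Of 96 listed genes 88 were measured, and with all arrays 8 rose, 3 fell and 77 did not pass, 12.5% called against 7.29% of all genes (3.16% higher, 4.14% lower). Without siControl replicate 3, 29 rose and 16 fell, 51.1% against 27.1% of all genes (12.2% higher, 14.8% lower). The median difference of the 88 was 0.035 with all arrays and 0.097 without that array, beside 0.016 and 0.020 over all genes. Leaving out any other single array left 1 or 2 of these genes higher and 2 lower.

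**Figure D4:**
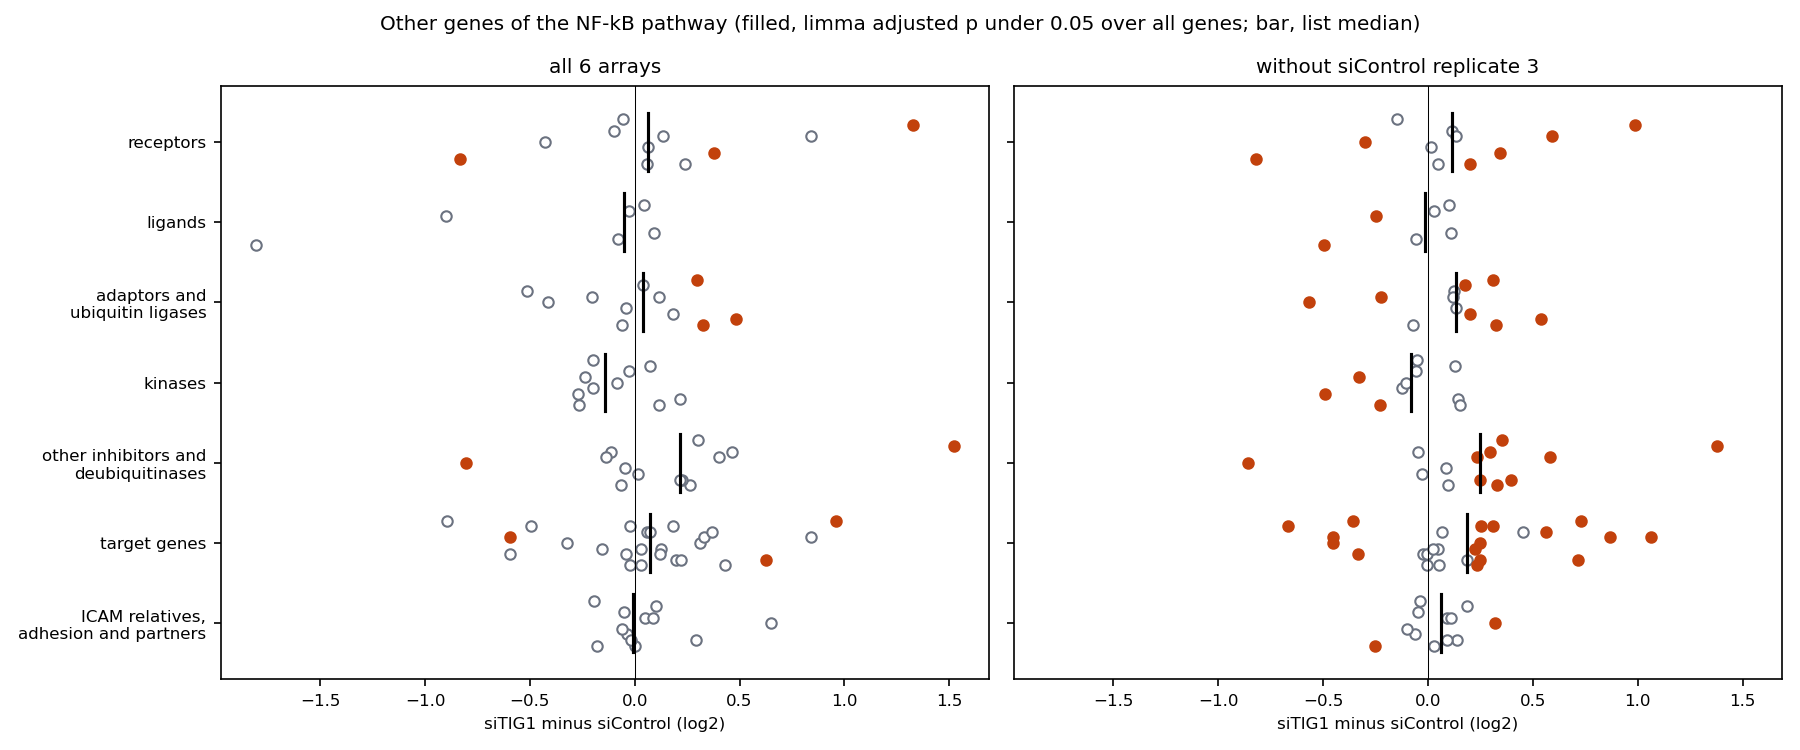
Log2 difference, siTIG1 minus siControl, (horizontal axis) of the 88 measured pathway genes by list (rows), with all 6 arrays on the left and without siControl replicate 3 on the right. Points are genes, filled where limma's adjusted p over all genes was under 0.05, and bars are list medians. Points are spread vertically within a list only to separate them. There are 11 filled points on the left and 45 on the right.

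Of 11 receptor genes TLR3 and TLR2 rose, IL1RAP fell and 8 did not pass. TLR3, the endosomal sensor of double-stranded RNA, read 9.87, 9.88 and 9.92 on the siTIG1 arrays, against 8.90, 8.91 and 7.88 on the siControl arrays. Its difference was 1.33 ± 0.28 (SE, limma adjusted p of 0.0408) with all arrays and 0.985 ± 0.050 (SE) without the low siControl replicate 3, and the call was lost in every other fit with 1 array left out. Of its 3 probe sets 1 was called, and on their mean the difference was 0.94 (limma adjusted p of 0.0726). TLR2, a receptor for bacterial lipoproteins, rose by 0.38 (limma adjusted p of 0.0348) and kept its call only without siControl replicate 3 or the array labelled siTIG1 replicate 1. IL1RAP, the signalling chain that the IL-1 receptor needs, read 9.95, 9.83 and 9.97 on the siTIG1 arrays, against 10.71, 10.76 and 10.78 on the siControl arrays. It was 1.78-fold lower, with a difference of -0.84 ± 0.059 (SE, limma adjusted p of 0.00244), and no single array decided the call. The receptor IL1R1 itself, which binds IL-1, had a difference of 0.84 (limma adjusted p of 0.0655) and passed as higher without siControl replicate 3 (0.59, with 1 of its 2 probe sets of this sign). In that fit TNFRSF1A, the main TNF receptor, also passed as higher (0.20) and TNFRSF12A, the TWEAK receptor, as lower (-0.30).

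By limma, 0 of 6 measured ligand genes and 0 of 10 kinase genes passed with all arrays. At an unadjusted p under 0.05 these counts were 0 and 4, against 21.9% of all genes. IL1A and IL1B had the largest ligand differences, -1.81 and -0.90 (limma adjusted p of 0.389 each). IL1A, which encodes IL-1α, read 8.24, 7.68 and 7.94 on the siTIG1 arrays and 8.41, 8.48 and 12.38 on the siControl arrays, so that siControl replicate 3 alone stood far above the rest. IL1B, which encodes IL-1β, read 9.93, 9.81 and 9.998 on the siTIG1 arrays and 10.13, 10.19 and 12.13 on the siControl arrays. Without that array IL1A differed by -0.50 and IL1B by -0.25, and both passed as lower (limma adjusted p of 0.019 and 0.0185). TNF differed by 0.093 (limma adjusted p of 0.328). The IκB kinase genes IKBKB and CHUK and the NF-κB-inducing kinase MAP3K14 passed as lower only without siControl replicate 3, by -0.33, -0.23 and -0.49. Of the 3 IKBKB probe sets 2 had this sign in that fit and 1 passed.

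Among 11 measured adaptors and ubiquitin ligases MYD88, TRADD and BIRC2 rose, none fell and 8 did not pass. MYD88, the adaptor of Toll-like and IL-1 receptors, rose by 0.48 ± 0.073 (SE, limma adjusted p of 0.0161), TRADD, the adaptor of TNF receptor 1, by 0.30 ± 0.049 (SE, limma adjusted p of 0.0212), and BIRC2, the ubiquitin ligase cIAP1, by 0.33 ± 0.070 (SE, limma adjusted p of 0.045). These 3 calls were kept only without siControl replicate 3, of the 6 ways to leave out 1 array. The call of BIRC2 was also lost under median centring and the trended robust variance (limma adjusted p of 0.0552 and 0.059). That of TRADD was lost under the trended robust variance and on the mean of its probe sets (limma adjusted p of 0.0562 and 0.0543). In the fit without siControl replicate 3, RNF31, the catalytic subunit of the linear ubiquitin ligase, and SHARPIN, another subunit of it, also passed as higher, while TRAF3 (-0.57, 1 of its 2 probe sets of this sign), which restrains the non-canonical pathway, and the kinase IRAK1 (-0.22), which acts with MYD88, passed as lower.

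Other inhibitors and deubiquitinases held the largest positive difference of the 88 genes. NFKBIZ, which encodes the nuclear protein IκBζ, read 12.03, 11.96 and 11.89 on the siTIG1 arrays, against 10.55, 10.61 and 10.15 on the siControl arrays. It rose 2.87-fold, by 1.52 ± 0.13 (SE, limma adjusted p of 0.00322), on both of its probe sets, and passed with any 1 array left out. PDLIM2, a ubiquitin ligase for nuclear p65, fell by 0.81 ± 0.082 (SE, limma adjusted p of 0.00555), also with any 1 array left out. Of its 2 probe sets 1 was called, and on their mean the difference was -0.47 (limma adjusted p of 0.022). The other 11 of 13 genes did not pass. Without siControl replicate 3 the list had 8 higher and 1 lower, against 12.2% and 14.8% of all genes. Among those higher were CYLD, a deubiquitinase (0.58), COMMD1, which promotes turnover of p65 (0.33), and the A20 partner TNIP3 (0.30). Of the 7 CYLD probe sets 4 had this sign in that fit and 2 passed.

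Of 25 measured textbook target genes CXCL1 and SOD2 rose, BCL2L1 fell and 22 did not pass. Among the 22, CXCL8 (0.22) and CXCL2 (0.029) were represented by dim probe sets, averaging 6.84 and 7.33 in siTIG1 cells. Over all probe sets, 1 of 2 CXCL8 and 1 of 3 CXCL2 probe sets passed as higher with all arrays. CXCL1, a neutrophil chemokine, rose 1.95-fold (0.96 ± 0.19 SE, limma adjusted p of 0.037) and SOD2, mitochondrial superoxide dismutase, 1.54-fold (0.63 ± 0.12 SE, limma adjusted p of 0.031). BCL2L1, which encodes the survival protein Bcl-xL, fell by 0.60 ± 0.12 (SE, limma adjusted p of 0.0399). Of the fits with 1 array left out, these 3 calls were kept only in the one without siControl replicate 3. BCL2L1 was also lost under quantile normalization (limma adjusted p of 0.0557) and on the mean of its 4 probe sets, where it differed by -0.29 (limma adjusted p of 0.164). With siControl replicate 3 left out, 11 targets passed as higher and 5 as lower, against 12.2% and 14.8% of all genes. They included the chemokine CXCL3 (1.06), cyclooxygenase PTGS2 (0.87) and cyclin D1 (CCND1, -0.67). PTGS2 read 11.49, 11.25 and 11.28 on the siTIG1 arrays and 10.40, 10.54 and 12.08 on the siControl arrays, so its order depended on siControl replicate 3, the highest array of all. The other targets that passed as lower in that fit were BCL2L1, MMP9, LCN2 and IER3. The called targets thus lay on both sides.

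ICAM1 was the one gene of its family that passed. Of 12 further adhesion molecules and ICAM1 partners 0 passed by limma with all arrays, and 0 had an unadjusted p under 0.05, against 21.9% of all genes. ICAM2, ICAM3, ICAM4 and ICAM5 differed by 0.050, 0.29, -0.051 and -0.039, and VCAM1 and SELE, adhesion molecules of activated endothelium, by -0.018 and 0.086. In siTIG1 cells ICAM2, ICAM4, ICAM5, VCAM1 and SELE averaged 7.62, 6.77, 7.21, 6.11 and 5.59, below the array medians of 7.87 to 7.90. Whether these dim genes were expressed was not tested. ICAM3 averaged 9.74, with every siTIG1 array above every siControl array, but did not pass (limma adjusted p of 0.284). With siControl replicate 3 left out, moesin (MSN, 0.32), which links ICAM1 to the cytoskeleton, passed as higher and ezrin (EZR, -0.25), its relative, as lower.

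**Figure D5:**
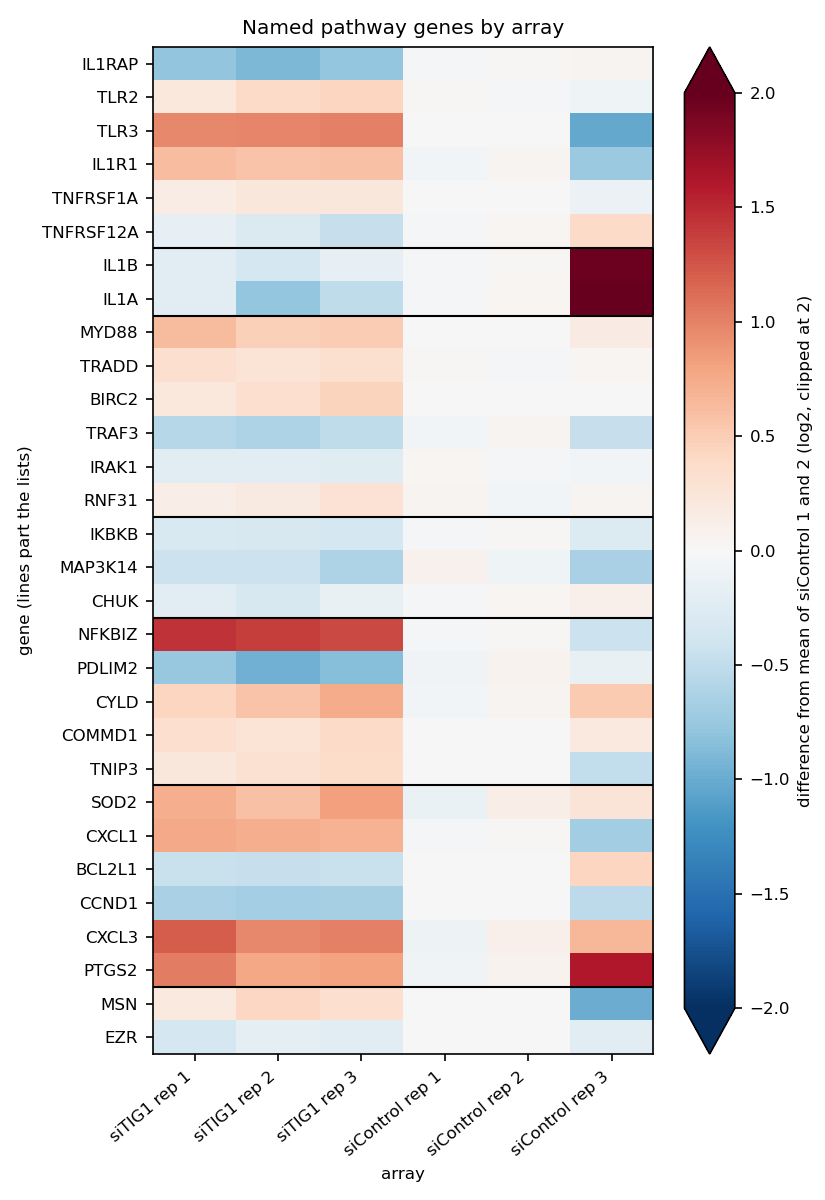
Colour gives each array's difference from the mean of siControl replicates 1 and 2 on the log2 scale, clipped at 2, for the 30 named pathway genes (rows, parted by list) on the 6 arrays (columns). The column of siControl replicate 3 departs from the other controls, upwards for IL1A, IL1B and PTGS2 and downwards for TLR3, IL1R1 and MSN.

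The genes whose values most resembled those of TNFAIP3 and ICAM1 over the 6 arrays were listed by Pearson's r, as a description, among 4011 genes above the median level with an SD of at least 0.2. All arrays share the difference between the groups, which by itself gives high values. For TNFAIP3 (202644_s_at) they were RDH10, RAB8B, QTMAN, STX12 and IPMK, with r of 0.994 to 0.996. For ICAM1 (202638_s_at) they were C5orf22, UBE2L6, ZNF622, ARMCX3 and SMIM14, with r of 0.993 to 0.998. No member of the pathway lists was among these 10 genes, but the lists hold only 88 of 19775 genes, so that this absence says little. On 202638_s_at siControl replicate 3 was the highest control, whereas it was the lowest on 202637_s_at, for which no such list was made.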

How the data were processed

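Expression was measured in SUM149 cells with 3 siTIG1 and 3 siControl arrays. Per the labels' protocols, biotin-labelled cRNA was hybridised to Affymetrix HG-U133 Plus arrays. In the deposited table each array has 1 log2 value for each probe set. The base is not stated and was taken as 2 from the range of the values, 4.28 to 15.59. Per the submitters' processing notes, which list MAS5 and RMA, it is unclear which of them gave the values. Array medians of 7.87 to 7.90 show that arrays had been brought to 1 scale, and no further normalization was applied. The sorted values differed between arrays by at most 0.093, so that the arrays had nearly the same distribution. Such values carry no detection call, and a shift of most genes one way cannot be seen in them.

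Of 54675 probe sets, 62 controls were left out and 54613 tested. Symbols came from the platform annotation, with 41091 probe sets on 1 symbol, 1801 on several and 11721 on none, and were updated by gene number against RefSeq (GRCh38.p14), which held 19735 of 19775 genes. The comparison used lmFit and eBayes of limma 3.58.1 (R 4.3.3), without a block and with Benjamini-Hochberg adjustment. For the pathway lists each gene was represented by its probe set of highest mean, with x_at sets used only where a gene had no other. The number of arrays limits the precision. In data simulated over 54613 probe sets, changes of 0.5, 1 and 2 were given to 60, 68 and 72 probe sets. They were recovered in 30.0%, 75.0% and 94.4% of cases, with 5 false calls. Far fewer probe sets were changed there than the 2737 called in the data, and the adjustment is stricter when fewer change. These shares therefore do not give the recovery in the data.

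The members, lists and tests were chosen with earlier results of these data known. Named pathway genes were up to 4 per list by p with all arrays and up to 3 more without siControl replicate 3, or, in a list with none, the 2 with the largest difference. SHARPIN, TNF, MMP9, LCN2, IER3, CXCL8, CXCL2 and the ICAM relatives were named after their values were seen. The fits were repeated after quantile normalization, after centring on medians, without dim probe sets, with a trended robust variance, on means over each gene's probe sets, with a replicate block and with each array left out. Leaving out siControl replicate 3 and siTIG1 replicate 1 together was added after seeing the data.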

Additional observations from a re-analysis of the deposited data

How the results depend on the processing

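Quantile normalization, median centring, the trended robust variance and the filter on dim probe sets each gave the same counts of member probe sets, 4 higher and 0 lower. The filter removed 5 of the 22, RELB 205205_at, NFKB2 209636_at and 211524_at, and REL 206035_at and 239486_at. With 1 array left out, members called higher ranged over 0 to 7, all probe sets over 155 to 4297 higher and 165 to 6027 lower, and pathway genes over 1 to 29 higher and 2 to 16 lower. The 0 arose without siTIG1 replicate 2 or 3. The highest counts all came without siControl replicate 3, and the cause was not tested. RARRES1 then ranged over -1.58 to -0.75, -1.52 to -0.68 and -1.09 to -0.46 on its probe sets, the smallest size each time without siControl replicate 3, where the first and second passed. Without both siControl replicate 3 and siTIG1 replicate 1, 8 member probe sets, 4316 of all probe sets and 32 pathway genes were higher, 5694 and 16 of the last 2 sets were lower, and RARRES1 differed by -0.98, -0.94 and -0.72, passing on all 3. No label says that the replicate numbers pair the arrays. Deviations of same-numbered arrays from their group means correlated at -0.042, -0.0099 and -0.0054, and those of differently numbered arrays at -0.028 to 0.060. With 3 arrays a group and siControl replicate 3 apart, these values cannot exclude a pairing. With the replicate block, which leaves fewer residual degrees of freedom, 2 member probe sets (both of TNFAIP3) were higher, all probe sets gave 215 higher and 263 lower, and pathway genes 1 and 1 (NFKBIZ and IL1RAP). On means over each gene's probe sets pathway genes gave 7 higher and 2 lower, and the calls of TLR3, TRADD and BCL2L1 were lost.

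Signs turned only for members with differences near 0. With 1 array left out the ranges were -0.052 to 0.15 (NFKB2 207535_s_at), -0.13 to 0.12 (NFKB2 209636_at), -0.087 to 0.033 (RELA 201783_s_at), -0.064 to 0.072 (RELB) and -0.052 to 0.20 (NFKBIE). RELA 201783_s_at was at 0.0058 under quantile normalization. Without siControl replicate 3 and siTIG1 replicate 1, NFKB2 209636_at was at 0.17, REL 206035_at at -0.0062, RELA 201783_s_at at 0.019 and RELB at 0.11. None of these passed over all probe sets, whereas over all genes NFKBIE passed without siControl replicate 3 (limma adjusted p of 0.0296). With siTIG1 replicate 1 left out too, NFKBIE and NFKB2 (207535_s_at) passed as higher over all genes (limma adjusted p of 0.0358 and 0.0249).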
